A study of Mus musculus with 8 samples.

Results

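The cytochrome P450 genes of families 1, 2 and 3 were examined in mouse liver on 8 Affymetrix arrays. Members were all genes whose symbol is Cyp followed by 1, 2 or 3 and a letter, measured by a probe set that the array annotation assigns to 1 gene. Where a gene had several such probe sets, the one with the highest mean over the 8 arrays was used. This gave 39 of the 12393 genes measured, namely 3 Cyp1 genes, 5 Cyp3a genes and 11 Cyp2c, 7 Cyp2d, 4 Cyp2b and 1 Cyp2a genes, with 8 further Cyp2 genes (Cyp2e1, Cyp2f2, Cyp2g1, Cyp2s1 and 4 Cyp2j genes).

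P450 enzymes of these families sit in the endoplasmic reticulum of hepatocytes and oxidise drugs, toxins, steroids, bile acids and fatty acids with electrons passed on by P450 oxidoreductase and cytochrome b5. Their genes are controlled by receptors that sense ligands, chiefly AhR for Cyp1, CAR for Cyp2b and PXR for Cyp3a. In rodent liver many of them also differ between the sexes under the pattern of growth hormone secretion, so Cyp2b9, Cyp2b13, Cyp3a16 and Cyp3a44 are known as female-predominant and Cyp2d9 as male-predominant.

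The arrays came from 4 genotypes with 2 arrays each, wild-type, SHP-/-, OB-/- (a leptin knockout) and OB-/-/SHP-/-, all on a C57BL background, fed standard chow. SHP, the product of Nr0b2, is an orphan nuclear receptor that lacks a DNA-binding domain and acts as a repressor of its relatives, and leptin is the fat-tissue hormone that restrains feeding. The design compares leptin loss with SHP present (OB-/- minus wild-type) and absent (OB-/-/SHP-/- minus SHP-/-), and SHP loss with leptin present (SHP-/- minus wild-type) and absent (OB-/-/SHP-/- minus OB-/-). The sources used here do not give sex, age or the structure of the knockout alleles. They also do not say whether both arrays of a genotype are from different mice, so p-values measure only the spread between these arrays, which may be technical. In whole liver RNA, fewer cells of a type and less RNA per cell cannot be told apart.

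Values are the deposited expression values, taken as log2 from their range of 2.20 to 14.19 because the base is not stated. A gene was called at a limma p below 0.05 after Benjamini-Hochberg adjustment over all 12393 genes, and "rose" and "fell" are used only for such calls. Levels of different genes come from different probe sets and are not compared with each other. Of the 39 members, 10 had a mean below 4.83, the 40th percentile of all probe sets, and are termed dim.

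Hepatocyte markers were high on every array, with list means between 13.09 and 13.38 over 8 measured genes. In OB-/- minus wild-type 2 of them fell and 0 rose, Cps1 by 0.51 (adjusted p = 0.0250) and Tat by 0.65 (adjusted p = 0.0144). Tat rose by 0.68 in OB-/-/SHP-/- minus OB-/- (adjusted p = 0.0489). The summed linear level of the list was 81100 and 78700 on the OB-/- arrays and 85700 to 89000 on the others. Nr0b2 read 8.74 and 8.71 in wild-type, 7.78 and 8.31 on the SHP-/- arrays, 8.01 and 8.01 on the OB-/- arrays, and 7.11 and 6.66 on the OB-/-/SHP-/- arrays. It was lower in OB-/-/SHP-/- than in OB-/- (log2 difference -1.13, adjusted p = 0.0108), while SHP-/- minus wild-type was -0.68 (adjusted p = 0.286). With leptin loss it fell with SHP present (-0.72, adjusted p = 0.0258) and with SHP absent (-1.16, adjusted p = 0.00372). Whether its probe set lies in the deleted part is unknown here, and Lep was at 3.16 to 3.53 on all arrays, so neither probe set settles the genotypes. OB-/- replicate 1 stood apart in Xist, at 7.41 against 4.31 to 4.70 on the other arrays, and SHP-/- replicate 1 in Fos, at 11.95 against 5.17 to 6.98. Of the Y-linked genes, Kdm5d was at 5.23 to 5.46 on the leptin-intact and 4.21 to 4.45 on the leptin-null arrays, and fell by 1.12 (adjusted p = 3.4e-04) and 0.93 (adjusted p = 0.00187) in the leptin comparisons. Eif2s3y and Uty were called in neither. The part of sex in the sex-patterned differences was not tested. The offset between 3' and 5' Gapdh control probe sets, a sign of RNA integrity and labelling, was 0.79 and 1.00 in wild-type, 0.19 and 0.35 in SHP-/-, and between -0.07 and 0.11 in both leptin-null genotypes. Its part in the differences between genotypes was not tested.

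The 2 OB-/-/SHP-/- arrays went apart in members of the Cyp2b and Cyp2c clusters. Of all 12393 genes, the 3 with the largest gap between these arrays were the members Cyp2b9, Cyp2b13 and Cyp2c39, with replicate 1 lower than replicate 2 by 6.40, 5.76 and 2.35 log2 units. Cyp2d9 had a gap of 1.10 the other way. In this genotype 4 members and 54 of all genes (0.436%) had a gap above 1. In wild-type 2 members (Cyp2b9 and Cyp2c39) and 18 of all genes (0.145%) had such a gap. In SHP-/- it was 0 members and 96 of all genes (0.775%), and in OB-/- 0 members and 7 of all genes (0.0565%). Over all genes, gaps above 1 were thus most frequent between the SHP-/- arrays. The median gap over members was 0.22 in OB-/-/SHP-/- and between 0.13 and 0.15 in the other genotypes, and over all genes it was 0.17 in OB-/-/SHP-/-. The OB-/-/SHP-/- minus SHP-/- differences of these 4 genes are given with and without each of these arrays.

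**Figure D1:**
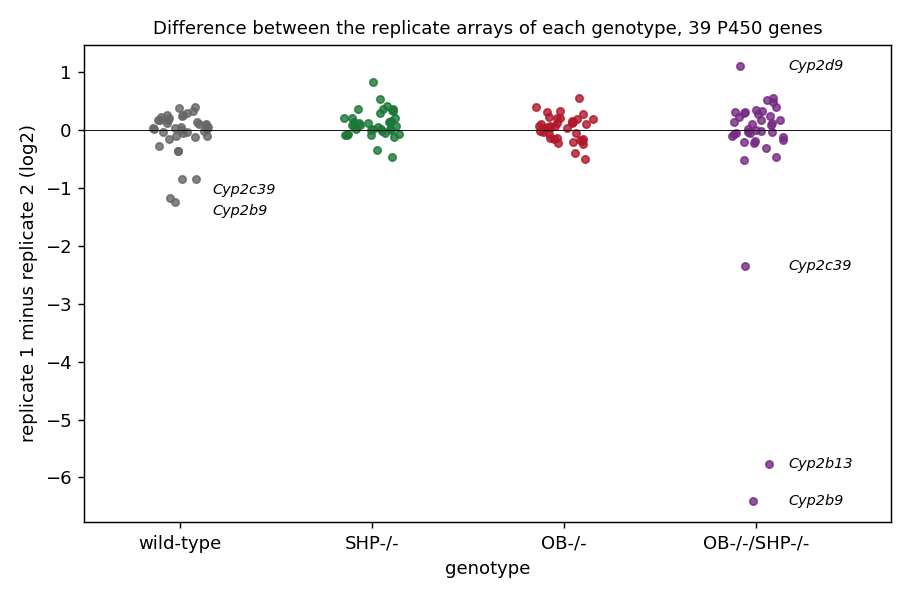
Replicate 1 minus replicate 2 in log2 units for each of the 39 P450 genes (points), by genotype, with genes named where the gap exceeds 1. In OB-/-/SHP-/- Cyp2b9 is at -6.40, Cyp2b13 at -5.76 and Cyp2c39 at -2.35, while in wild-type Cyp2b9 and Cyp2c39 have gaps of 1.25 and 1.17.

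Leptin loss moved 11 members with SHP present and 10 with SHP absent. In OB-/- minus wild-type 5 rose and 6 fell, which is 28.2% of members beside 16.9% of all genes called (7.58% up and 9.36% down). In OB-/-/SHP-/- minus SHP-/- 4 rose and 6 fell, which is 25.6% of members beside 10.6% of all genes (4.95% up and 5.62% down). The median difference over the 39 members was 0.07 and -0.01, against -0.01 and 0.03 over all genes. The median size of the difference was 0.26 and 0.31 over members, against 0.20 and 0.19 over all genes.

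Both leptin comparisons, which share no array, called 5 members in common. Cyp2b10 rose in both, and Cyp1a2, Cyp2c23, Cyp2c54 and Cyp2d13 fell in both, with 0 called in opposite directions. Of all 12393 genes, 360 rose in both, 481 fell in both and only 12 were called in opposite directions. The differences had the same sign for 26 of the 39 members (66.7%), beside 72.3% of all genes, and correlated across members at r = 0.60 (Spearman 0.44), beside 0.72 over all genes. Genes are not independent replicates, so no p is attached.

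**Figure D2:**
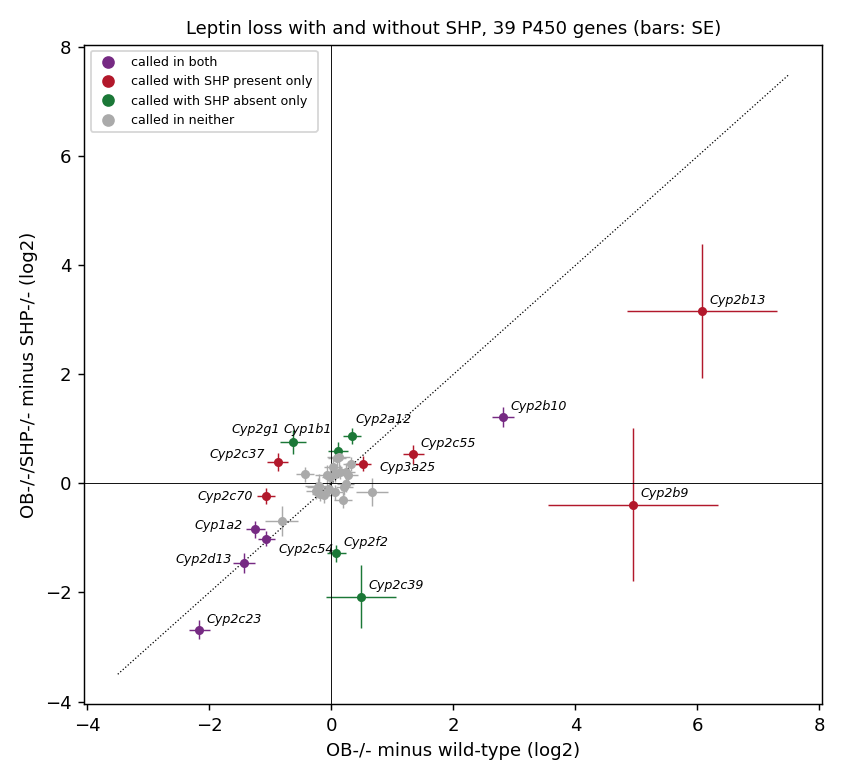
Log2 difference with leptin loss for the 39 P450 genes, SHP present on the horizontal axis and SHP absent on the vertical axis, with bars for 1 moderated standard error and a dotted line of equal differences. Cyp2c23, Cyp2d13, Cyp2c54 and Cyp1a2 lie close to the line, and Cyp2b10 (2.82 against 1.22) lies below it. The long bars are those of Cyp2b13 and Cyp2b9, whose OB-/-/SHP-/- arrays went apart.

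The Cyp2b genes gave the largest rises. They lie in 1 cluster on chromosome 7 in the order Cyp2b10, Cyp2b13, Cyp2b9 and Cyp2b19. Cyp2b9 and Cyp2b13, the female-predominant pair, have nearly the same promoter window and were both high in OB-/- and split between the OB-/-/SHP-/- arrays. Cyp2b10, the main CAR target of mouse liver, has a less similar window and a gap of 0.47 between these arrays. Cyp2c39, which also split, has 246 of 300 bases identical to the window of Cyp2c38, whose gap was 0.52. The part of the window in the split was not tested. The windows of Cyp2b9, Cyp2b13 and Cyp2b10 are shown as a description. Each runs from 250 bases before to 50 bases after the gene's start on the plus strand of GRCm38.p6, as listed by RefSeq, at chr7:26173159-26173458 for Cyp2b9, chr7:26061245-26061544 for Cyp2b13 and chr7:25897408-25897707 for Cyp2b10. Capitals mark bases that differ from, or have no partner in, the aligned Cyp2b9 window.
Cyp2b9: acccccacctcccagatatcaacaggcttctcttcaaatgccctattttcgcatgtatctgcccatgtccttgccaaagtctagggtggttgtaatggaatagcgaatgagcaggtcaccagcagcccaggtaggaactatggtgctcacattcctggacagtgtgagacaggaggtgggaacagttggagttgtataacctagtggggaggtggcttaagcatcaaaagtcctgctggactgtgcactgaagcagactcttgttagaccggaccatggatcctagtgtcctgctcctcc
Cyp2b13: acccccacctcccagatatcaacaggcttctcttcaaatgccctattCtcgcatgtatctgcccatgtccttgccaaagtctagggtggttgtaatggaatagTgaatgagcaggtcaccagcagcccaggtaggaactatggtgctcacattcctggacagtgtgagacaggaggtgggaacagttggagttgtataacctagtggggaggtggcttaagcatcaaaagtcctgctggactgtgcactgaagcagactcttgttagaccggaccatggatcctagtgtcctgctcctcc
Cyp2b10: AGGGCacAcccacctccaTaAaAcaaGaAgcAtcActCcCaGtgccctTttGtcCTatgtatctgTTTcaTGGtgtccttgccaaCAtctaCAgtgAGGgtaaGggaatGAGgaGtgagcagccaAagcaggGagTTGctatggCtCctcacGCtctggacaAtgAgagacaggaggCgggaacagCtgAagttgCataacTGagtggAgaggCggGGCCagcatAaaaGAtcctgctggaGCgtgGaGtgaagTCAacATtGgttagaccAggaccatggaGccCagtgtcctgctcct
Of 300 bases, 298 of the Cyp2b13 window and 223 of the Cyp2b10 window were identical to Cyp2b9. Among the 496 pairs of the 32 members with a listed window, Cyp2b9 and Cyp2b13 were the most alike, against a median of 153 identical bases. The nuclear receptor half-site AGGTCA, searched on both strands, stood at positions -138 to -133 from the start in both Cyp2b9 and Cyp2b13 and was not among the letters of the Cyp2b10 window. It also stood at -121 to -116 in the window of Cyp2b19. It occurred in 11 of the 32 member windows (34.4%) and in 16.0% of the 27025 windows of all genes. The AhR core GCGTG, searched likewise, stood in the Cyp2b10 window at -101 to -97 on the minus strand and -9 to -5 on the plus strand. It was found in 18.8% of member windows and 32.5% of all. No member window held TTCNNNGAA, a STAT5-type site found in 8.5% of all windows, while TATAAA was in 16 of 32 member windows and 14.2% of all. A match of letters describes the window and is not a test of binding.

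Cyp2b9 read 5.84 and 7.08 in wild-type, 8.34 and 7.51 on the SHP-/- arrays, 11.44 and 11.37 on the OB-/- arrays, and 4.34 and 10.74 on the OB-/-/SHP-/- arrays. Cyp2b13 read 4.47 and 4.56 in wild-type, 4.03 and 4.49 on the SHP-/- arrays, 10.61 and 10.56 on the OB-/- arrays, and 4.55 and 10.31 on the OB-/-/SHP-/- arrays. Both OB-/- arrays and OB-/-/SHP-/- replicate 2 were thus high for both genes, and OB-/-/SHP-/- replicate 1 was as low as the leptin-intact arrays for Cyp2b13 and lower than all of them for Cyp2b9. In OB-/- minus wild-type, Cyp2b13 rose by 6.07 (SE 1.23, adjusted p = 0.00658) and Cyp2b9 by 4.95 (SE 1.40, 30.8-fold, adjusted p = 0.0324). The wild-type mean of Cyp2b13, 4.51, lies below the limit for dim genes, so no exact fold is given for it. These errors carry the spread of the OB-/-/SHP-/- pair through the shared estimate. Without either OB-/-/SHP-/- array the adjusted p became 7.2e-09 for Cyp2b13 and 1.3e-05 for Cyp2b9. Leaving out wild-type replicate 1 gave 6.03 (adjusted p = 0.0608) for Cyp2b13 and 4.32 (adjusted p = 0.209) for Cyp2b9, leaving out wild-type replicate 2 gave 6.12 (0.0518) and 5.57 (0.0970), and leaving out OB-/- replicate 2 gave 6.10 (0.0503) and 4.98 (0.140). Without OB-/- replicate 1, the array with the higher Xist, Cyp2b13 was at 6.05 (adjusted p = 0.0499) and Cyp2b9 at 4.91 (adjusted p = 0.139).

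With SHP absent, the answer for both genes depends on which OB-/-/SHP-/- array is kept. On both arrays, OB-/-/SHP-/- minus SHP-/- was 3.17 for Cyp2b13 (adjusted p = 0.131) and -0.39 for Cyp2b9 (adjusted p = 0.895), and neither was called. On replicate 2 alone the differences were 6.05 (adjusted p = 1.1e-07) and 2.81 (adjusted p = 0.00423). On replicate 1 alone they were 0.29 (adjusted p = 0.515) and -3.59 (adjusted p = 0.00112). OB-/-/SHP-/- minus OB-/- likewise went from -0.28 to -6.04 for Cyp2b13 and from -0.67 to -7.07 for Cyp2b9 between replicate 2 alone and replicate 1 alone. These fits assume that a lone array varies like those of the other genotypes. The probe sets of Cyp2b9 and Cyp2b13 may share sequence, and whether either also reads the other's transcript was not tested.

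Cyp2b10 did not split in this way. It read 5.52 and 5.67 in wild-type, 5.60 and 5.24 on the SHP-/- arrays, 8.33 and 8.50 on the OB-/- arrays, and 6.40 and 6.87 on the OB-/-/SHP-/- arrays, so that the double knockout lay between the others without overlap. It rose by 2.82 (SE 0.18, 7.05-fold, adjusted p = 2.6e-06) in OB-/- minus wild-type and by 1.22 (SE 0.18, 2.32-fold, adjusted p = 0.00204) in OB-/-/SHP-/- minus SHP-/-. The SHP effect differed with leptin status (interaction -1.60, SE 0.26, adjusted p = 0.0187), and OB-/-/SHP-/- was 1.77 below OB-/- (SE 0.18, 3.42-fold, adjusted p = 3.0e-04). The interaction call was lost when either wild-type or either OB-/- array was left out, with adjusted p up to 0.128, while its value stayed between -1.84 and -1.37. All 3 probe sets of Cyp2b10 moved the same way, by 2.82, 3.57 and 3.24 in OB-/- minus wild-type and by -1.77, -2.37 and -2.21 in OB-/-/SHP-/- minus OB-/-, each called. On all 3, OB-/-/SHP-/- replicate 1 was lower than replicate 2, at 6.40 against 6.87, 5.54 against 5.76 and 4.71 against 5.68. Cyp2b19, known from mouse skin, was dim, at 2.98 to 3.48, and was called in no comparison.

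Markers of exocrine pancreas followed the order of Cyp2b10 across genotypes. Of 6 measured, 4 of them dim, 5 rose in OB-/- minus wild-type and 4 fell in OB-/-/SHP-/- minus OB-/-. Their summed linear level was 110 to 113 on the leptin-intact arrays, 1110 and 845 on the OB-/- arrays, and 155 and 186 on the OB-/-/SHP-/- arrays. Of 10 macrophage markers, 9 rose in OB-/- minus wild-type and 2 in OB-/-/SHP-/- minus SHP-/-, with a summed linear level of 1330 and 1340 in wild-type, 3260 and 2350 on the SHP-/- arrays, 3720 and 3740 on the OB-/- arrays, and 4070 and 5240 on the OB-/-/SHP-/- arrays. Other markers changed too. In OB-/- minus wild-type 3 of 6 endothelial and 3 of 7 stellate markers rose, and 0 of 4 bile duct markers were called. The stellate marker Col3a1 (1.49) and the adipocyte marker Fabp4 (1.88) rose there, and fell in OB-/-/SHP-/- minus OB-/- (-1.19 and -0.96). The part of these cells in the P450 differences was not tested.

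**Figure D3:**
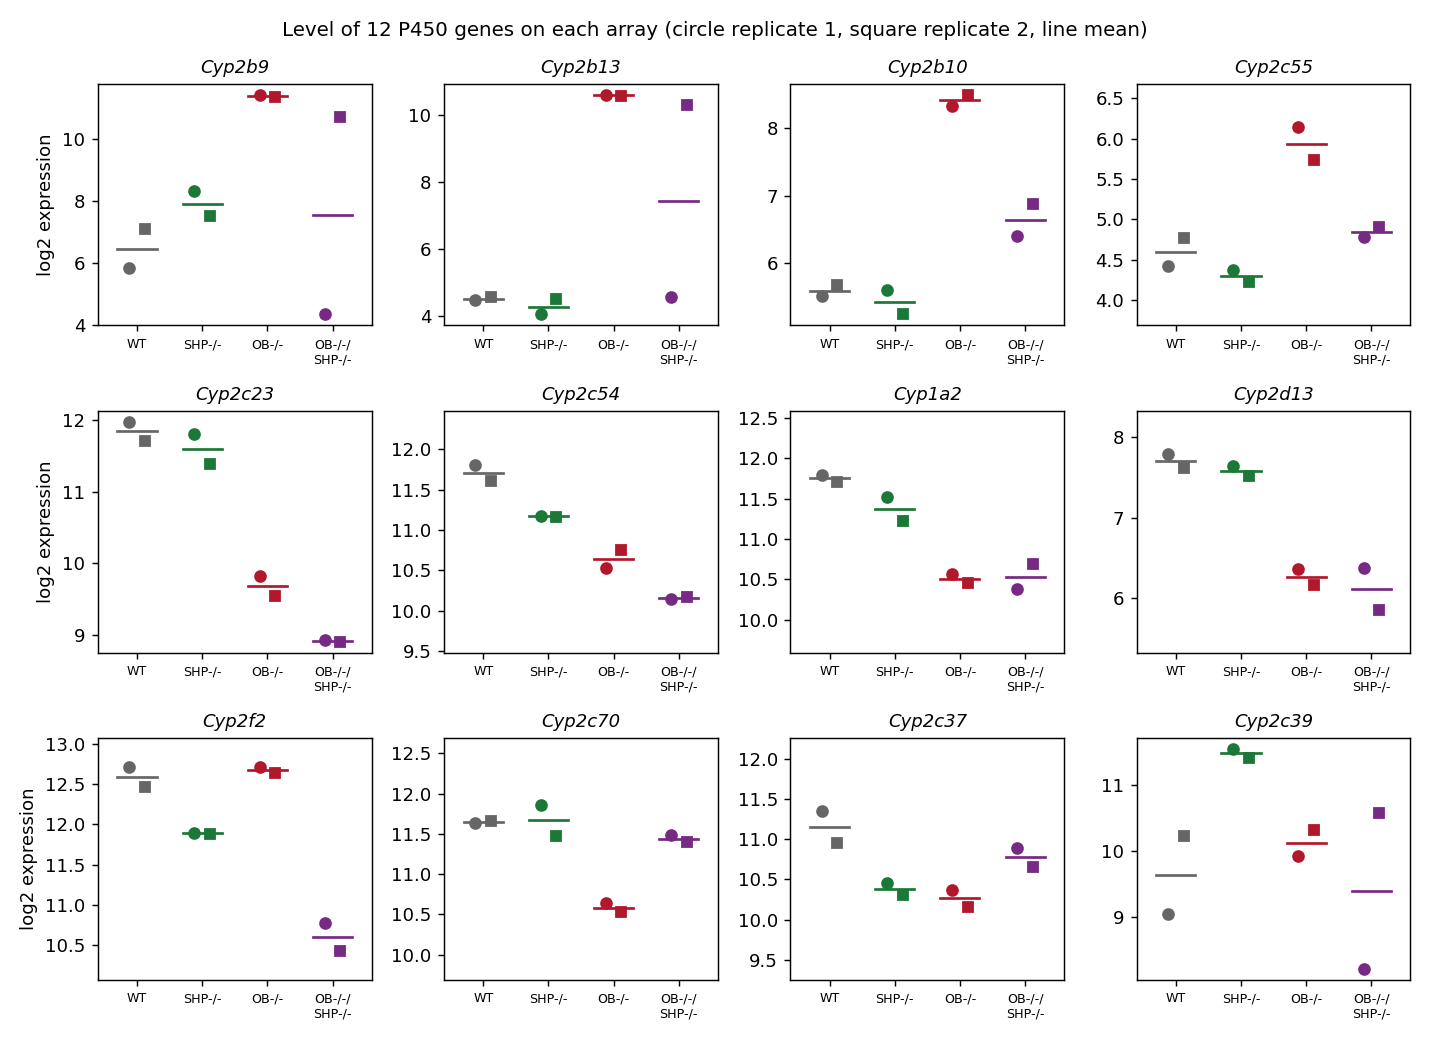
Log2 expression of 12 P450 genes on each array by genotype, with a circle for replicate 1, a square for replicate 2 and a line at the mean; vertical scales differ between panels. Cyp2b10 and Cyp2c55 are high in OB-/-, Cyp2c23, Cyp2c54, Cyp1a2 and Cyp2d13 are low in both leptin-null genotypes, Cyp2f2 is low in OB-/-/SHP-/-, and Cyp2b9 and Cyp2b13 split between the OB-/-/SHP-/- arrays.

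The Cyp2c genes on chromosome 19 changed in both directions. Of the 11 measured, 1 rose and 4 fell in OB-/- minus wild-type, and 3 fell in OB-/-/SHP-/- minus SHP-/-. Cyp2c23, an epoxygenase of arachidonic acid, read 11.98 and 11.72 in wild-type, 11.81 and 11.39 on the SHP-/- arrays, 9.83 and 9.54 on the OB-/- arrays, and 8.92 and 8.91 on the OB-/-/SHP-/- arrays. All leptin-null arrays were below all leptin-intact ones. It fell by 2.16 (SE 0.17, adjusted p = 1.6e-05) with SHP present and by 2.69 (SE 0.17, adjusted p = 4.0e-06) with SHP absent. The double knockout was also below OB-/- by 0.77 (SE 0.17, adjusted p = 0.0474), a call that was lost with any of 6 arrays left out (adjusted p up to 0.327). Cyp2c23 was measured only by a probe set of a type that can match several transcripts.

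Cyp2c54, also an epoxygenase, read 11.81 and 11.60 in wild-type, 11.17 and 11.16 on the SHP-/- arrays, 10.53 and 10.75 on the OB-/- arrays, and 10.15 and 10.16 on the OB-/-/SHP-/- arrays. The genotypes did not overlap. It fell by 1.07 (SE 0.14, adjusted p = 4.9e-04) with SHP present and by 1.01 (SE 0.14, adjusted p = 0.00119) with SHP absent.

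Cyp2c70, which in mouse liver makes muricholic acids, read 11.64 and 11.66 in wild-type, 11.85 and 11.48 on the SHP-/- arrays, 10.64 and 10.53 on the OB-/- arrays, and 11.48 and 11.40 on the OB-/-/SHP-/- arrays. Only the OB-/- arrays were apart from the rest. It fell by 1.07 in OB-/- minus wild-type (SE 0.15, adjusted p = 7.8e-04) and was 0.85 higher in OB-/-/SHP-/- than in OB-/- (SE 0.15, adjusted p = 0.0125). The second call was lost when any of the 4 arrays compared was left out (adjusted p up to 0.144). The interaction was 0.84 (adjusted p = 0.174) and was not called.

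Cyp2c55, a CAR and PXR target in mouse, read 4.42 and 4.77 in wild-type, 4.38 and 4.23 on the SHP-/- arrays, 6.14 and 5.74 on the OB-/- arrays, and 4.78 and 4.90 on the OB-/-/SHP-/- arrays. The OB-/- arrays were the high ones, and the wild-type and SHP-/- means of 4.59 and 4.30 lie below the limit for dim genes, so no exact fold is given. It rose by 1.35 in OB-/- minus wild-type (SE 0.17, adjusted p = 4.3e-04) and was 1.10 lower in OB-/-/SHP-/- than in OB-/- (SE 0.17, adjusted p = 0.00659), the latter at an adjusted p of 0.0882 without OB-/- replicate 1. Both comparisons use the same OB-/- arrays, as do those of Cyp2b10 and Cyp2c70.

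Cyp2c37 and Cyp2c50, which flank Cyp2c54 among the measured genes, have the most similar promoter windows of the Cyp2c pairs with a listed window, with 264 of 300 bases identical, and only Cyp2c37 was called in any comparison. Their RefSeq windows on the plus strand of GRCm38.p6 are at chr19:40089429-40089728 for Cyp2c50 and chr19:39992174-39992473 for Cyp2c37, and capitals in the second mark bases that differ from, or have no partner in, the first.
Cyp2c50: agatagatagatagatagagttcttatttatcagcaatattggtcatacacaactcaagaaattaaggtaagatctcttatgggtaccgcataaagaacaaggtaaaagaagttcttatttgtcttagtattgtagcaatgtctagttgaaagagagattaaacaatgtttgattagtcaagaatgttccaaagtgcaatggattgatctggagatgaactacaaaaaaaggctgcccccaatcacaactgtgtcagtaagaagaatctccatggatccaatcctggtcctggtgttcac
Cyp2c37: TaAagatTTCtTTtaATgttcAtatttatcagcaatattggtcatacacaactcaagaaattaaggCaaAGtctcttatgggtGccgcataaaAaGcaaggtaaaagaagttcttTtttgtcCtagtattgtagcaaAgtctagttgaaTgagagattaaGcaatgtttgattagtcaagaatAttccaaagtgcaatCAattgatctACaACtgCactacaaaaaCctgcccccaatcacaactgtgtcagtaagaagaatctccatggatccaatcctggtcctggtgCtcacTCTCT
Cyp2c37 read 11.35 and 10.95 in wild-type, 10.46 and 10.30 on the SHP-/- arrays, 10.37 and 10.16 on the OB-/- arrays, and 10.90 and 10.66 on the OB-/-/SHP-/- arrays. Either single loss gave lower values than wild-type, and the double knockout lay above both single knockouts. In OB-/- minus wild-type it fell by 0.88 (SE 0.17, adjusted p = 0.00483), a call lost without wild-type replicate 1 or OB-/- replicate 2 (adjusted p up to 0.0573). In OB-/-/SHP-/- minus SHP-/- it was 0.40 (adjusted p = 0.165) and was not called. Its interaction was 1.27 (SE 0.24, adjusted p = 0.0430), and that call was lost with any of 7 arrays left out (adjusted p up to 0.215). Cyp2c50 read 11.75 and 11.61 in wild-type, 11.24 and 11.19 on the SHP-/- arrays, 11.79 and 11.77 on the OB-/- arrays, and 11.85 and 11.53 on the OB-/-/SHP-/- arrays. It was called in no comparison, with 0.10 in OB-/- minus wild-type (adjusted p = 0.725) and 0.47 in OB-/-/SHP-/- minus SHP-/- (adjusted p = 0.0636). The difference between both genes was not tested.

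Cyp2c39, a retinoic acid hydroxylase, read 9.05 and 10.22 in wild-type, 11.54 and 11.40 on the SHP-/- arrays, 9.93 and 10.32 on the OB-/- arrays, and 8.22 and 10.57 on the OB-/-/SHP-/- arrays. The SHP-/- arrays were above all others, and the double knockout spanned the range of wild-type and OB-/-. It fell by 2.07 in OB-/-/SHP-/- minus SHP-/- (SE 0.58, adjusted p = 0.0426), a call that was lost with any of 7 of the 8 arrays left out and under 6 of 11 other settings (adjusted p up to 0.243). Without OB-/-/SHP-/- replicate 1 the value was -0.90 (adjusted p = 0.150), and without replicate 2 it was -3.25 (adjusted p = 7.6e-04). Its neighbour Cyp2c38 read 9.05 and 9.89 in wild-type, 10.91 and 10.55 on the SHP-/- arrays, 10.06 and 10.21 on the OB-/- arrays, and 10.32 and 10.84 on the OB-/-/SHP-/- arrays, and was called in no comparison. Cyp2c29, a CAR target, stayed within 11.39 to 12.01 and was not called either, nor were Cyp2c68 (11.46 to 12.35) and the dim Cyp2c65 (2.66 to 3.11).

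In family 1, Cyp1a2, the AhR target that oxidises caffeine, fell with leptin loss. It read 11.80 and 11.70 in wild-type, 11.52 and 11.22 on the SHP-/- arrays, 10.56 and 10.45 on the OB-/- arrays, and 10.38 and 10.69 on the OB-/-/SHP-/- arrays, so leptin-null and leptin-intact arrays did not overlap. It fell by 1.24 (SE 0.16, 2.37-fold, adjusted p = 3.7e-04) with SHP present and by 0.84 (SE 0.16, 1.79-fold, adjusted p = 0.00683) with SHP absent. The latter was at an adjusted p of 0.0799 without both OB-/- replicate 1 and SHP-/- replicate 1. Cyp1a1, its inducible neighbour on chromosome 9, was dim at 4.45 to 4.85 and not called. Cyp1b1, mainly expressed outside the liver, was dim too, at 3.94 to 4.82, and was named after its values were seen. It was called in OB-/-/SHP-/- minus SHP-/- at 0.60 (adjusted p = 0.0363), but its other probe sets gave 0.24 and -0.07 there and were not called.

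In the Cyp2d cluster on chromosome 15, 1 of 7 genes was called. Cyp2d13, which RefSeq lists as a transcribed pseudogene, read 7.79 and 7.61 in wild-type, 7.64 and 7.51 on the SHP-/- arrays, 6.37 and 6.17 on the OB-/- arrays, and 6.38 and 5.86 on the OB-/-/SHP-/- arrays. It fell by 1.43 (SE 0.18, adjusted p = 3.4e-04) with SHP present and by 1.46 (SE 0.18, adjusted p = 4.8e-04) with SHP absent, and its second probe set gave -1.58 and -1.50. Cyp2d9, the male-predominant steroid hydroxylase, read 12.41 and 12.08 in wild-type, 12.15 and 12.14 on the SHP-/- arrays, 11.51 and 11.35 on the OB-/- arrays, and 12.01 and 10.90 on the OB-/-/SHP-/- arrays. All leptin-null arrays were below all leptin-intact ones, but the differences of -0.81 (adjusted p = 0.0681) and -0.69 (adjusted p = 0.140) were not called. Without OB-/-/SHP-/- replicate 1 the second was -1.24 (adjusted p = 0.00324), and without replicate 2 it was -0.14 (adjusted p = 0.774). The first was called without either of these arrays (adjusted p = 0.00464). Cyp2d sequences are closely related, so reads of 1 probe set may include other Cyp2d transcripts, which was not tested.

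Among the Cyp2 genes of chromosome 7 outside Cyp2b, Cyp2f2 changed most. It encodes a naphthalene-activating enzyme of lung club cells that the liver also expresses. Its level was 12.72 and 12.46 in wild-type, 11.90 and 11.88 on the SHP-/- arrays, 12.71 and 12.63 on the OB-/- arrays, and 10.78 and 10.43 on the OB-/-/SHP-/- arrays. Wild-type and OB-/- overlapped, SHP-/- was below both, and the double knockout was the lowest. OB-/-/SHP-/- was 2.07 below OB-/- (SE 0.16, 4.19-fold, adjusted p = 1.9e-05) and 1.28 below SHP-/- (SE 0.16, 2.43-fold, adjusted p = 4.8e-04), and both calls were kept with any array left out. SHP-/- minus wild-type was -0.70 (adjusted p = 0.121). The interaction of -1.36 (SE 0.22, adjusted p = 0.0187) was lost without wild-type replicate 2 or either OB-/- array (adjusted p up to 0.126). The club cell marker Scgb1a1 was at 3.24 to 3.52 on all arrays. The 4 lung markers listed, Scgb1a1 included, summed to a linear level of 102 to 154. Of these 4, Sftpc, a surfactant protein gene, rose by 0.56 in OB-/-/SHP-/- minus SHP-/- (adjusted p = 0.0388) and by 0.75 in OB-/-/SHP-/- minus OB-/- (adjusted p = 0.0286). The other 3 were not called. Periportal hepatocyte markers had list means between 10.96 and 11.60, with 0 of 4 called in OB-/-/SHP-/- minus SHP-/- and 1 up in OB-/-/SHP-/- minus OB-/-. In OB-/- minus wild-type 2 of the 4 fell. Of 8 measured pericentral hepatocyte markers, 1 rose and 4 fell in OB-/- minus wild-type. With SHP absent 2 rose and 2 fell, and 0 were called in OB-/-/SHP-/- minus OB-/-. The part of liver zones in the P450 differences was not tested.

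Cyp2a12, a bile acid hydroxylase in mouse, read 11.73 and 11.63 in wild-type, 11.03 and 10.98 on the SHP-/- arrays, 12.14 and 11.90 on the OB-/- arrays, and 11.97 and 11.79 on the OB-/-/SHP-/- arrays. The SHP-/- arrays were below all others. It rose by 0.87 in OB-/-/SHP-/- minus SHP-/- (SE 0.14, 1.83-fold, adjusted p = 0.00316), and SHP-/- minus wild-type was -0.67 (adjusted p = 0.0967). Cyp2g1, known from olfactory mucosa, read 5.44 and 5.21 in wild-type, 4.45 and 3.91 on the SHP-/- arrays, 4.71 and 4.67 on the OB-/- arrays, and 5.22 and 4.67 on the OB-/-/SHP-/- arrays. It was dim, lay below the median of all values and was named after its values were seen. Its rise of 0.76 in OB-/-/SHP-/- minus SHP-/- (adjusted p = 0.0430) was lost with any of 6 arrays left out (adjusted p up to 0.251).

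Cyp2e1, the ethanol-oxidising enzyme, stayed between 12.86 and 13.26 on all arrays and was called in no comparison. The epoxygenase Cyp2j5 stayed between 10.56 and 10.90, with 0.21 in OB-/- minus wild-type, whereas its second probe set gave -0.62 (adjusted p = 0.0255 in a fit of every probe set). Cyp2j6, Cyp2j9, Cyp2j13 and Cyp2s1 were not called.

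Of the 5 Cyp3a genes of chromosome 5 with a probe set of their own, 1 was called. Cyp3a41a and Cyp3a41b share a probe set, which in a fit of every probe set rose by 2.95 with SHP present (adjusted p = 0.00220) and by 3.82 with SHP absent (adjusted p = 8.9e-04). Cyp3a11, the main PXR target, read 12.62 and 12.64 in wild-type, 12.86 and 12.73 on the SHP-/- arrays, 12.79 and 12.75 on the OB-/- arrays, and 12.98 and 13.03 on the OB-/-/SHP-/- arrays, and was not called. Cyp3a25 read 12.10 and 11.85 in wild-type, 12.20 and 12.20 on the SHP-/- arrays, 12.47 and 12.50 on the OB-/- arrays, and 12.53 and 12.60 on the OB-/-/SHP-/- arrays. It rose by 0.52 in OB-/- minus wild-type (SE 0.14, 1.43-fold, adjusted p = 0.0238), a call lost without wild-type replicate 2 or either OB-/- array (adjusted p up to 0.156), and was 0.36 in OB-/-/SHP-/- minus SHP-/- (adjusted p = 0.117). The female-predominant Cyp3a16 and Cyp3a44 were dim on all arrays, at 2.56 to 3.15 and 2.75 to 3.34, and were not called.

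SHP loss alone moved no member past the threshold. In SHP-/- minus wild-type limma called 0 of 39 members, beside 0.323% of all genes (0.226% up and 0.0968% down), and 12 members (30.8%) had an unadjusted p below 0.05, beside 7.12% of all genes. Of these 12, 3 had higher and 9 lower values in SHP-/-. Named after their values were seen, the differences were 1.84 for Cyp2c39 (adjusted p = 0.388), 1.26 for Cyp2c38 (adjusted p = 0.0910), -1.14 for the dim Cyp2g1 (adjusted p = 0.0588) and -0.76 for Cyp2c37 (adjusted p = 0.119). Without either OB-/-/SHP-/- array, whose spread enters the shared error, Cyp2c39 was called (adjusted p = 0.0332). A fit with an intensity trend called 5, namely Cyp2a12, Cyp2c37, Cyp2c38, Cyp2f2 and Cyp2g1. Outside the membership rule, the probe set shared by Cyp2a4 and Cyp2a5 fell in SHP-/- minus wild-type in a fit of every probe set. It read 12.27 and 12.09 in wild-type, and 11.06 and 9.91 on the SHP-/- arrays.

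With leptin absent, SHP loss moved 5 members. In OB-/-/SHP-/- minus OB-/- Cyp2c70 rose, and Cyp2f2, Cyp2b10, Cyp2c55 and Cyp2c23 fell, which is 12.8% of members beside 2.14% of all genes (1.26% up and 0.880% down). The calls of Cyp2b10 and Cyp2f2 were kept with any array left out. Cyp2b9 and Cyp2b13 differed by -3.87 (adjusted p = 0.261) and -3.16 (adjusted p = 0.313) and rest on OB-/-/SHP-/- replicate 1 as given above. The interaction called 3 members, Cyp2b10, Cyp2f2 and Cyp2c37, which is 7.69% beside 0.549% of all genes (0.355% up and 0.194% down). All 3 were lost with at least 1 array left out, and without OB-/-/SHP-/- replicate 2 the interaction called 7, among them Cyp2b9 at -8.53 and Cyp2b13 at -5.79.

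**Figure D4:**
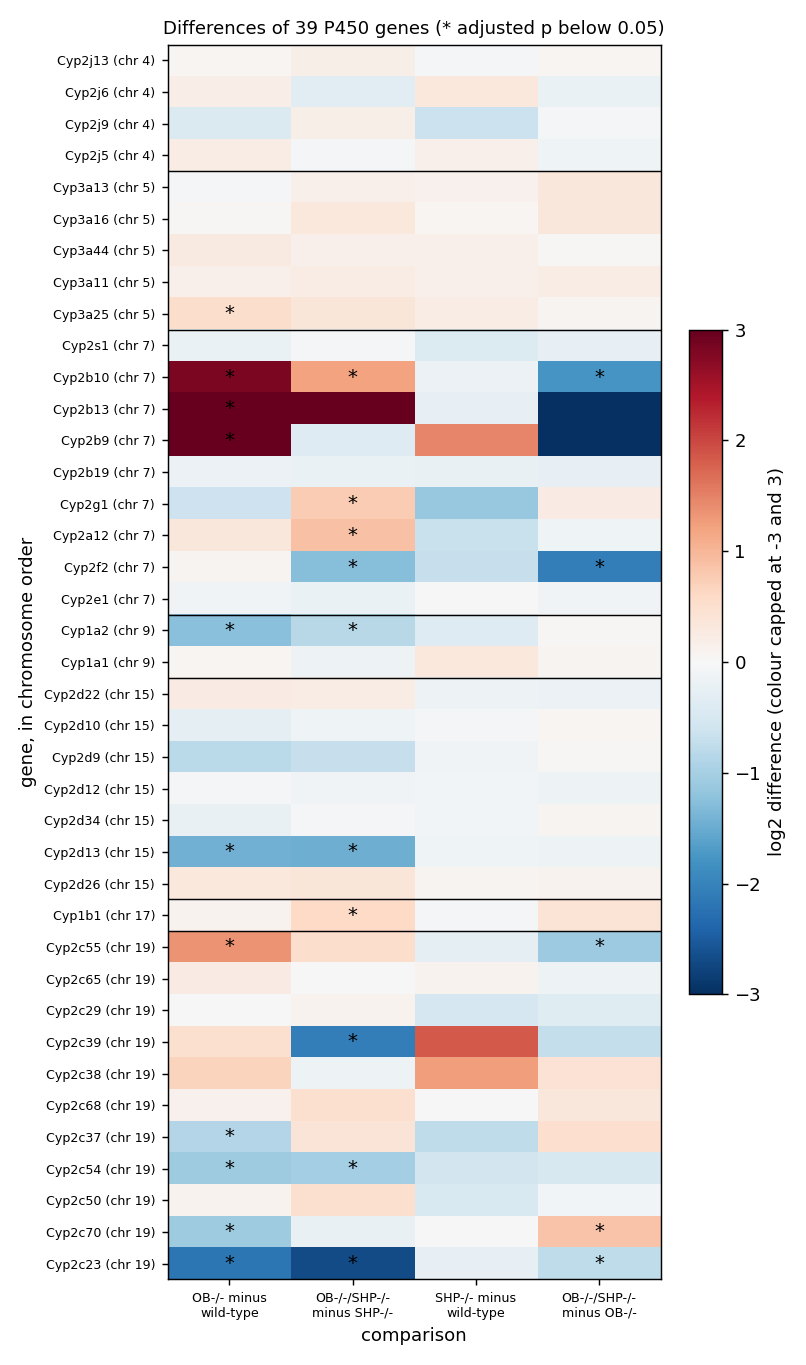
Log2 differences of the 39 P450 genes (rows, in chromosome order) in 4 comparisons (columns), red for higher and blue for lower, with colours capped at -3 and 3 and asterisks at adjusted p below 0.05. The leptin comparisons hold 11 and 10 asterisks, SHP-/- minus wild-type holds 0 and OB-/-/SHP-/- minus OB-/- holds 5.

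The receptors and factors that control these genes were lower or not called. Of 17 measured, 6 fell in OB-/- minus wild-type and 5 in OB-/-/SHP-/- minus SHP-/-, with 0 up in either. These are 35.3% and 29.4% of the list, beside 9.36% and 5.62% of all genes called down. Both counts include Nr0b2, the gene knocked out in SHP-/-, whose values are given above. Hnf4a, which maintains the hepatocyte programme, fell by 0.76 (adjusted p = 0.00338) and the coactivator Ppargc1a by 1.25 (adjusted p = 3.3e-04) with SHP present. Ahr was -0.66 with SHP present (adjusted p = 0.114) and fell by 1.18 with SHP absent (adjusted p = 0.0160). CAR (Nr1i3) stayed between 9.60 and 9.92 and PXR (Nr1i2) between 7.02 and 7.82, and neither was called in any comparison. Of 17 measured phase II and transport genes that these receptors also control, 7 rose and 3 fell in OB-/- minus wild-type, and 6 rose and 2 fell in OB-/-/SHP-/- minus SHP-/-. Gstm3, a glutathione transferase, rose by 3.27 and 2.74, and Nqo1, a quinone reductase, by 1.72 and 1.49. Those that fell with SHP present were Gadd45b (-0.81), Slco1a4 (-0.80) and Ces2a (-0.73). With SHP absent they were Ces2a (-0.59) and Gadd45b (-0.58). Of 11 measured genes of electron transfer and haem supply, 2 rose with SHP present, Cyb5r3 by 1.15 and Cyb5b by 0.61, and 1 with SHP absent, Cyb5r3 by 0.49. Por, which encodes P450 oxidoreductase, was not analysed here.

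Sex-patterned genes outside the P450 families also changed in both leptin comparisons. Of 10 measured female-predominant genes 6 rose in each leptin comparison, the sulfotransferase Sult2a2 by 7.75 and 7.91. Of 11 male-predominant genes 10 fell with SHP present and 8 with SHP absent, the transporter Slco1a1 by 6.46 and 6.25. The mean of the female-predominant list was 5.26 to 5.93 on leptin-intact arrays, 7.78 and 7.67 on the OB-/- arrays, and 8.48 and 8.49 on the OB-/-/SHP-/- arrays. Single genes of the list differed between the OB-/-/SHP-/- arrays in both directions, with Prom1, a membrane glycoprotein gene, at 5.13 and 4.55 and Hao2, a hydroxy acid oxidase, at 6.29 and 6.82. Socs2, a feedback gene of growth hormone signalling, fell by 2.33 (adjusted p = 1.1e-04) and 2.23 (adjusted p = 2.0e-04), and was at 5.04 and 5.56 in OB-/-/SHP-/-. These lists were chosen with results of these arrays known and are not independent evidence of direction.

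**Figure D5:**
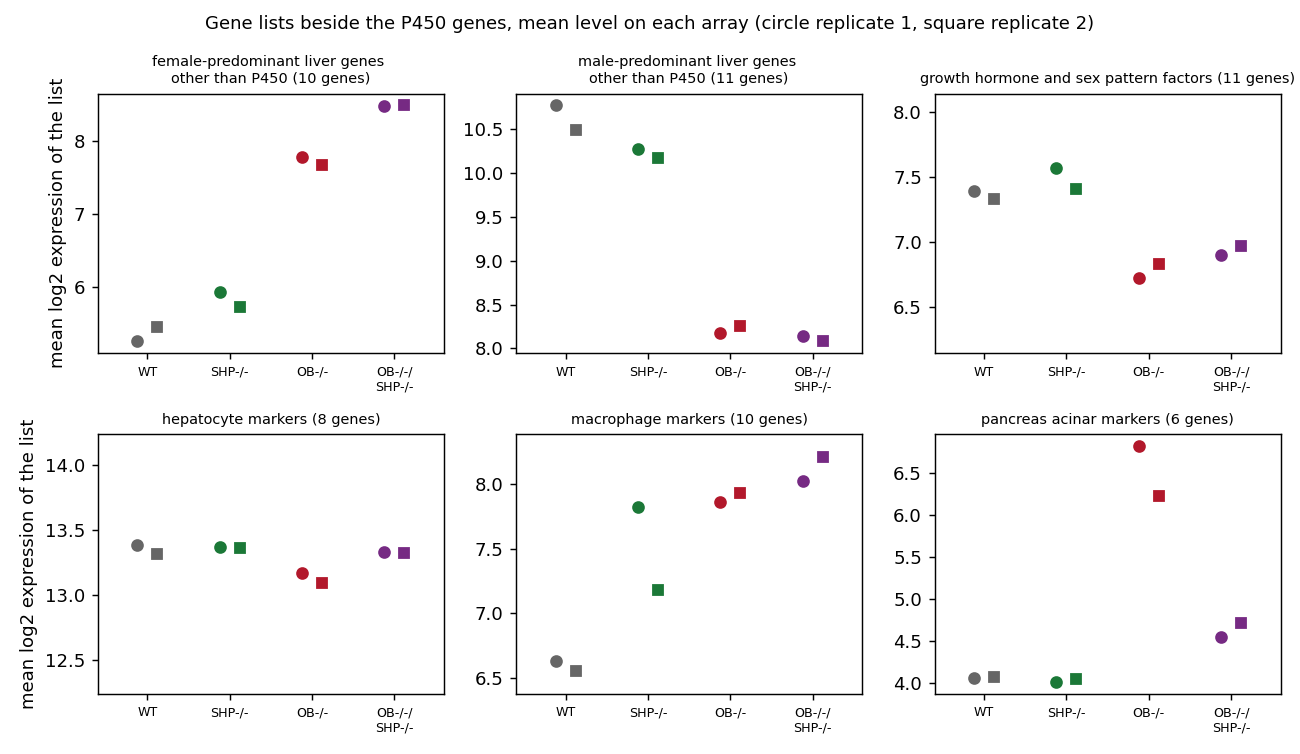
Mean log2 expression of 6 gene lists on each array by genotype, with circles for replicate 1 and squares for replicate 2; vertical scales differ between panels. The female-predominant list lies at 8.48 and 8.49 on the OB-/-/SHP-/- arrays, the hepatocyte list between 13.09 and 13.38, and the pancreas list is highest in OB-/-, at 6.82 and 6.22.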

How the data were processed

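Liver RNA of 4 mouse genotypes was measured on 8 arrays, 2 per genotype, and grouped by sample title. The authors deposited 1 log2 value per probe set and array, and the submitters' processing notes name R 2.15.0. The sources used here do not give the summarisation, background correction or logarithm base, and base 2 was read from the range. Array medians of 5.45 to 5.56 showed values already on 1 scale, so they were used as deposited. Of 22690 probe sets, 64 controls were left out, and 20380 named 1 gene, 691 several and 1555 none. All 39 members, from 46 probe sets, matched RefSeq (GRCm38.p6), which also gave promoter windows for 32 (not for Cyp2d34, Cyp2c54, Cyp2d22, Cyp2c23, Cyp2d12, Cyp2d13 and Cyp2g1).

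Genotype means were fitted for 12393 genes with limma 3.58.1 in R 4.3.3 (4 residual and 7.16 prior degrees of freedom), tested on simulated data first, with two-sided tests and Benjamini-Hochberg adjustment over all genes within each of 5 comparisons. SE is the moderated standard error. The number of arrays limits the precision. Members, lists and tests were chosen with earlier results of these data known. Differences were given for up to 10 rises and 10 falls per comparison among called members with a genotype mean at or above 5.50, the median of all values; others were named after their values were seen. Alternatives covered normalisation, dim genes (40th percentile), probe set choice, eBayes options, the replicate block and each array left out; every probe set by itself was added after seeing the data.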

Additional observations from a re-analysis of the deposited data

Results flagged for a closer look

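The effect of SHP loss depended on leptin status for 3 members by the interaction term of the limma fit. For Cyp2b10 the interaction was -1.60 (SE 0.26, adjusted p = 0.0187): OB-/-/SHP-/- minus OB-/- was -1.77 and SHP-/- minus wild-type was -0.17. For Cyp2f2 it was -1.36 (SE 0.22, adjusted p = 0.0187), from -2.07 and -0.70. For Cyp2c37 it was 1.27 (SE 0.24, adjusted p = 0.0430), from 0.51 and -0.76, with opposite signs on either side. Each of these calls was lost with at least 1 array left out.

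A probe set that the annotation assigns to both Cyp3a41a and Cyp3a41b, female-predominant Cyp3a genes, was outside the membership rule and went up with leptin loss. It read 6.82 and 6.23 in wild-type, 6.80 and 6.80 on the SHP-/- arrays, 9.68 and 9.28 on the OB-/- arrays, and 11.59 and 9.66 on the OB-/-/SHP-/- arrays. In a fit of every probe set it rose by 2.95 in OB-/- minus wild-type (SE 0.47, 7.72-fold, adjusted p = 0.00220) and by 3.82 in OB-/-/SHP-/- minus SHP-/- (SE 0.47, adjusted p = 8.9e-04). Its OB-/-/SHP-/- replicate 1, the array where Cyp2b9 and Cyp2b13 were low, was the highest of all 8.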

How the results depend on the processing

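The 29 calls of members in the 5 comparisons had 543 values under alternatives, of which 459 kept direction and call, 84 kept the direction without the call and 0 reversed. In OB-/- minus wild-type (11 members called), the count was 9 to 14 under settings that keep all arrays or leave out a pair, and 7 (without OB-/- replicate 2) to 13 with 1 array left out. In OB-/-/SHP-/- minus SHP-/- (10 called) it was 7 to 13, and 7 to 11. In SHP-/- minus wild-type (0 called) it was 5 with an intensity trend, 1 with robust eBayes, 1 without both OB-/- replicate 1 and SHP-/- replicate 1, and 0 to 2 with 1 array left out (1 without SHP-/- replicate 1, 2 without either OB-/-/SHP-/- array). In OB-/-/SHP-/- minus OB-/- (5 called) it was 3 without both those arrays and 2 to 6 with 1 left out (2 without OB-/- replicate 1, 3 without OB-/- replicate 2 or OB-/-/SHP-/- replicate 1). For the interaction (3 called) it was 0 without both, and 0 to 7 with 1 left out (1 without wild-type replicate 1, 0 without wild-type replicate 2 or either OB-/- array, 7 without OB-/-/SHP-/- replicate 2). With the replicate block the 5 counts were 13, 10, 2, 5 and 4; in SHP-/- minus wild-type the block called Cyp2c37 and Cyp2g1, and same-numbered arrays deviated from their genotype means with correlations between -0.11 and 0.20, so the numbers were not taken to pair arrays. Robust eBayes ended the OB-/- minus wild-type calls of Cyp2b13 (adjusted p = 0.137) and Cyp2b9 (adjusted p = 0.254); the cause of these changes was not tested. Of the calls, 7 of 11, 7 of 10, 2 of 5 and 0 of 3 were kept with any single array left out. A lone array is then assumed to vary like the other genotypes, and 2 arrays per genotype leave small differences undetected.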

Other observations

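The probe set assigned to both Cyp2a4, known as female-predominant, and Cyp2a5, steroid and coumarin hydroxylases, read 12.27 and 12.09 in wild-type, 11.06 and 9.91 on the SHP-/- arrays, 12.23 and 12.18 on the OB-/- arrays, and 12.51 and 12.28 on the OB-/-/SHP-/- arrays. The OB-/- arrays lay within the range of wild-type. The SHP-/- arrays were below all others. In a fit of every probe set, it fell by 1.69 in SHP-/- minus wild-type (SE 0.29, adjusted p = 0.0384) and rose by 1.91 in OB-/-/SHP-/- minus SHP-/- (SE 0.29, adjusted p = 0.00308), with an interaction of 1.88 (adjusted p = 0.0915). Cyp2a12, the Cyp2a gene of the same cluster with its own probe set, was also lowest on the SHP-/- arrays.

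After Cyp2b9, Cyp2b13 and Cyp2c39, the gene with the largest gap between the OB-/-/SHP-/- arrays was Asic5, an ion channel, and its gap of 2.25 went the other way. It read 8.56 and 8.67 in wild-type, 8.19 and 8.14 on the SHP-/- arrays, 5.21 and 4.84 on the OB-/- arrays, and 7.53 and 5.28 on the OB-/-/SHP-/- arrays. As with Cyp2b13, replicate 1 of the double knockout was nearer to the leptin-intact arrays and replicate 2 nearer to OB-/-. Asic5 was picked after its values were seen.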
